A study of Mus musculus with 34 samples.

Results

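The β-catenin destruction complex was followed through the H3K4me3 mark at the promoters of 9 genes, namely Apc, Apc2, Axin1, Gsk3a, Gsk3b, Csnk1a1, Ctnnb1, Btrc and Fbxw11. These 9 genes were chosen by name from 21938 protein-coding genes, and the value of each was the mean H3K4me3 signal within 1000 bp on each side of the gene 5′ end (GENCODE M21, mm10). The rule used no measured value, although the genes were named with earlier results of these data known. H3K4me3 was profiled by CUT&RUN, in which an antibody brings a nuclease to the marked nucleosomes and the released DNA fragments are sequenced, in cells that were scraped from the villi of small intestine of normal appearance. Wild-type C57BL/6J mice were compared with ApcMin/+ mice on the same background, both of 5 weeks by the sample labels, with 2 libraries for each genotype that the labels number as replicates. The methods give 2 mice for each genotype and an age of 6 weeks in place of 5. ApcMin/+ mice carry a germline nonsense allele of Apc in 1 of the 2 copies in every cell, so the mutation is not restricted to the epithelium. A promoter mark reports neither a point mutation in the coding sequence nor which allele a fragment came from, and the labels were therefore not checked by the Apc signal. The cells were not sorted, and fewer cells of a type cannot be told apart from less mark per cell.

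The destruction complex holds the cytosolic level of β-catenin low when no Wnt ligand is present. APC and axin form the scaffold, casein kinase 1α and the GSK3 kinases phosphorylate β-catenin on it, and the β-TrCP proteins recognise the phosphorylated protein for ubiquitination and degradation by the proteasome. In the intestine, loss of Apc leaves β-catenin free to enter the nucleus with TCF factors, the step that initiates most adenomas, and H3K4me3 is the mark found around the start of active and poised genes.

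The 4 libraries were of unequal depth and of unequal enrichment, and both bear on every member. The libraries held 1430000 and 4790000 tags in wild type and 3700000 and 5470000 tags in ApcMin/+, for replicates 1 and 2 in that order. The deposited signal is coverage scaled to 10000000 tags, so that depth sets the precision and not the level. ApcMin/+ replicate 1 stood apart, with 43.3% of its signal in enriched regions against 11.9% to 22.6% in the other 3 libraries. It had the highest signal of the 4 libraries at 98.6% of the 9931 promoters whose mean signal reached 2. This mean is weighted towards ApcMin/+ replicate 1, so the filter favours promoters where that library is high. The median tested promoter was at 4.53 and 3.06 in wild type and at 13.2 and 4.18 in ApcMin/+. Of the cell type marker lists, 11 of 12 enterocyte promoters reached a mean signal of 2, against 3 of 6 crypt and proliferation promoters and 1 of 8 secretory promoters. None of 8 immune, 8 mesenchymal and 10 silent promoters reached it, and the immune, mesenchymal and silent means were 0.26 to 1.32. The summed enterocyte signal was 41.3 to 67.6 in wild type and 54.2 to 207 in ApcMin/+, and the summed crypt signal was 11.6 to 14.3 and 19.8 to 46.7. At all 3 tested crypt promoters, as at 38.5% of all tested promoters, both ApcMin/+ libraries exceeded both wild-type ones, with differences of -0.08 to 0.33 once each library was centred on its median tested promoter and none past the threshold. The crypt and proliferation promoters under the filter were Lgr5, Ascl2 and Olfm4, with means of 1.22, 1.13 and 0.25. Those above it were Smoc2, Mki67 and Top2a, with means of 2.70, 8.11 and 9.70. Smoc2 was at 2.09 and 1.36 in wild type and 4.28 and 3.06 in ApcMin/+. It passed the filter through its ApcMin/+ values, so its order between the genotypes was favoured by the filter. The part of cell composition in the values of the members was not tested.

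Apc, the gene mutated in these mice and the larger scaffold of the complex, carried a H3K4me3 peak at its 5′ end (chromosome 18, position 34220924, plus strand) in both genotypes. Its promoter signal was 6.28 and 3.61 in wild type and 23.7 and 4.57 in ApcMin/+. ApcMin/+ replicate 1 was far above the other libraries, while ApcMin/+ replicate 2 lay between the wild-type libraries, so that the groups overlapped. The level in wild type was 4.94 ± 1.89 (SD, n = 2) and in ApcMin/+ 14.1 ± 13.5 (SD, n = 2). The signal rested on 18.0 to 176 fragments, and the 95% Poisson interval of wild-type replicate 1 ran from 3.72 to 9.93, which includes the value of ApcMin/+ replicate 2. On the log2(signal + 1) scale the difference, ApcMin/+ minus wild type, was 1.02 with an SE of 1.17 (limma, adjusted p = 0.683). The median difference over all tested promoters was 0.85, and Apc lay at the 73.1st percentile among them. When each library was centred on its median tested promoter, the difference at Apc was 0.16 with an SE of 0.28, and an interval of 2 SE on each side ran from -0.40 to 0.73. Without ApcMin/+ replicate 1 it was -0.056.

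The mark at Apc lay over its upstream starts. GENCODE M21 lists 8 starts for 9 Apc transcripts. The 4 starts within 328 bp of the 5′ end shared a region of 2500 bp that was enriched on the mean of the 4 libraries, from -1123 to 1376 bp relative to the 5′ end. At the start of a second protein-coding promoter, 26774 bp downstream, the signal was 1.05 and 1.06 in wild type and 0.90 and 1.06 in ApcMin/+, where the background was 0.20 to 0.32. This start was similarly low in the 4 libraries, including the one with the highest signal at the upstream promoter. The pseudogene Gm10548 begins on the other strand 848 bp downstream of the Apc 5′ end, and the 2 cannot be separated within the window. The promoters with values most like those of Apc over the 4 libraries, by Euclidean distance on the log2(signal + 1) scale among 9930 tested promoters, were Zkscan5 (distance 0.09), Pnpla6 (0.09) and Gdpd1 (0.10).

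**Figure D1:**
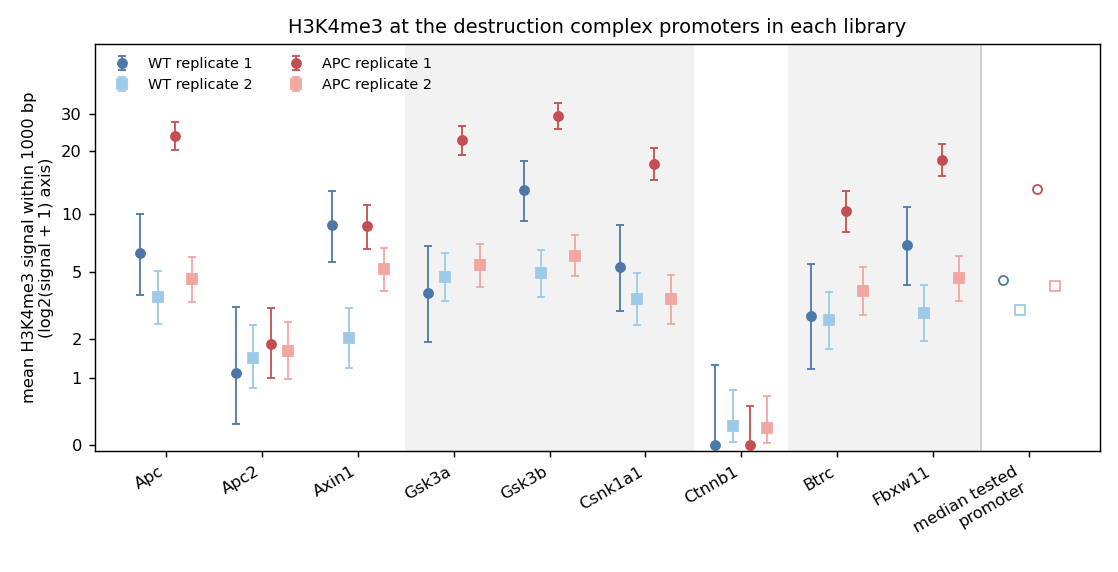
Mean H3K4me3 signal within 1000 bp of the 5′ end of the 9 genes in each library (log2(signal + 1) axis), with exact Poisson 95% intervals for counting error, and the median tested promoter as open symbols; grey bands set off the kinases and the ligase receptors. ApcMin/+ replicate 1 (labelled APC) is the highest library at every tested gene but Axin1, Apc2 lies between 1.11 and 1.85, and Ctnnb1 lies at or near 0 in each library.

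The other scaffold genes differed from Apc in level and in pattern. Apc2, the paralogue of Apc known mainly from neurons (chromosome 10, position 80295977, plus strand), had a signal of 1.11 and 1.46 in wild type and of 1.85 and 1.63 in ApcMin/+. Both ApcMin/+ libraries were above both wild-type libraries, but the values differed by less than the counting error, with a 95% interval of 0.24 to 3.15 in wild-type replicate 1 from 3.17 fragments. With a mean of 1.51 it was below the filter of 2 and was not tested. The bin just before the start was the highest within 1000 bp in 3 libraries. In these 250 bp the signal was 5.79 in wild-type replicate 2, 10.1 in ApcMin/+ replicate 1 and 4.23 in ApcMin/+ replicate 2, and it was 0 in wild-type replicate 1. In the 250 bp after the start it was at most 0.83 in any library. The nearest other start of a gene was that of Rps15, a ribosomal protein gene, at -3524 bp.

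Axin1 (chromosome 17, position 26138688, plus strand), the scaffold that brings the kinases and β-catenin together, was the tested member with the largest fold difference between the wild-type libraries. Its promoter signal was 8.77 and 2.02 in wild type and 8.64 and 5.20 in ApcMin/+. Wild-type replicate 1 was the highest library here, which ApcMin/+ replicate 1 was at the other 6 tested members. The wild-type libraries differed 4.35-fold, and a ratio this large or larger was found at 0.393% of the tested promoters. Their 95% intervals, 5.68 to 12.9 and 1.22 to 3.14, did not overlap. ApcMin/+ replicate 1 exceeded replicate 2 only 1.66-fold at Axin1, against a median of 3.16-fold over the tested promoters and 5.19-fold at Apc. A ratio at or below that of Axin1 was found at 5.76% of the tested promoters, and one at or above that of Apc at 5.69%. The genotype difference was 0.51 with an SE of 1.03 (limma, adjusted p = 0.697), and -0.34 with an SE of 0.29 after centring, so its direction turned with the scaling. It also turned, to -0.34, when wild-type replicate 2 was left out without centring. In each library the highest bin lay 500 to 750 bp downstream of the start, at 24.9, 6.02, 22.9 and 10.2.

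Gsk3b, which encodes the kinase GSK3β, carried the strongest mark of the complex. Within 1000 bp of the gene 5′ end it was the highest of the 9 genes in each of the 4 libraries, at 13.0 and 4.91 in wild type and 29.4 and 6.12 in ApcMin/+. Its mean over the 4 libraries exceeded that of 98.2% of all protein-coding promoters. Wild-type replicate 1 was above ApcMin/+ replicate 2, and the groups overlapped. The region around its start (chromosome 16, position 38089001, plus strand) was 5700 bp long and reached 4499 bp into the gene, longer than the region at 97.2% of the tested promoters. The strongest bin lay 250 to 500 bp upstream of the start in all 4 libraries, at 39.5, 10.9, 71.3 and 14.6. The genotype difference was 0.69 with an SE of 1.26 (limma, adjusted p = 0.685), -0.16 after centring and -0.35 without ApcMin/+ replicate 1.

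Gsk3a, which encodes the closely related GSK3α (chromosome 7, position 25237851, minus strand), had a signal of 3.84 and 4.72 in wild type and 22.5 and 5.44 in ApcMin/+. Both ApcMin/+ libraries were above both wild-type libraries, although ApcMin/+ replicate 2 exceeded wild-type replicate 2 by only 0.72, within the 95% intervals of both. The genotype difference of 1.23 with an SE of 1.16 was the largest of the tested members (limma, adjusted p = 0.683). It was 0.37 with an SE of 0.28 after centring and 0.29 without ApcMin/+ replicate 1. Under every alternative that was run it was above 0, but with centring and without wild-type replicate 1 by only 0.028. Within the window of 1000 bp on each side, the signal at Gsk3a and Gsk3b lay more upstream than at the median tested promoter. The share leaves out signal beyond the window, and the regions of Gsk3b and Csnk1a1 reached 4499 and 3426 bp downstream. The part of the window downstream of the start held 32.7% to 47.7% of the signal at Gsk3a and 38.5% to 44.2% at Gsk3b, against medians of 65.7% to 69.5% over the tested promoters. Apc2 (8.41% to 31.5%), Fbxw11 (24.7% to 53.1%) and Csnk1a1 (44.3% to 64.6%) were also below the median of each library. Apc, Axin1 and Btrc were above it in some libraries.

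Csnk1a1 encodes casein kinase 1α, the priming kinase for GSK3, and begins at position 61555274 of chromosome 18 on the plus strand. Its signal was 5.32 and 3.55 in wild type and 17.4 and 3.52 in ApcMin/+. The ApcMin/+ libraries were the highest and the lowest of the 4. The genotype difference was 0.77 with an SE of 1.08 (limma, adjusted p = 0.683), -0.087 after centring and -0.25 without ApcMin/+ replicate 1. Its region was 4200 bp long and ended 3426 bp downstream of the start, so that much of it lay outside the window. The bin from 1250 to 1500 bp downstream was at 20.6 and 5.43 in wild type and at 53.0 and 17.0 in ApcMin/+, and within 2000 bp of the start it was the highest bin of both ApcMin/+ libraries.

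Ctnnb1 encodes β-catenin, the substrate of the complex, and its window held almost no mark. The signal was 0 and 0.21 in wild type and 0 and 0.18 in ApcMin/+, that is 2 fragments in each of the libraries of replicate 2 and none in the others. Each value was under what 3 tags would give, which was 0.27 to 1.05 depending on the library, and no fold is given. The background outside enriched regions was 0.20 to 0.32. This 5′ end, at position 120929216 of chromosome 9, belongs to 1 of 15 annotated transcripts. The mark lay further into the gene. A region of 3700 bp, chr9:120933301-120937000, began 4085 bp downstream of the 5′ end and took in the starts of 6 transcripts, among them that at 120933400, which RefSeq also gives. Its mean signal was 3.58 and 3.38 in wild type and 14.9 and 3.90 in ApcMin/+, on 19.0, 59.9, 204 and 79.0 fragments. Both ApcMin/+ libraries were above both wild-type libraries over this region, by little in replicate 2 and with wild-type replicate 1 on 19.0 fragments. The bounds of the region are weighted towards ApcMin/+ replicate 1, and the share of all regions with this order is not given. The highest bins lay between 5000 and 6500 bp from the 5′ end, at 8.37 and 12.8 in wild type and 42.7 and 8.36 in ApcMin/+.

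For comparison with the other members, Ctnnb1 was also measured within 1000 bp of the annotated start with the highest mean signal, a choice made after its profile had been seen. This start lies at 120933818, which is 4602 bp downstream of the 5′ end. The signal there was 3.22 and 3.53 in wild type and 6.96 and 2.36 in ApcMin/+, which is 7.92 to 35.2 times the background. ApcMin/+ replicate 2 was the lowest library and replicate 1 the highest. With all genes measured in this way the difference was 0.24 with an SE of 0.84 (limma, adjusted p = 0.792 over 10797 promoters), and it was -0.64 with an SE of 0.36 with centring (adjusted p = 1.00) and -0.38 without ApcMin/+ replicate 1. The direction at this start therefore turned with the scaling and with 1 library. Among all 21938 genes, 17.2% had the start with the highest signal more than 1000 bp from the gene 5′ end. The tested promoters nearest to the Ctnnb1 window at the 5′ end were H2-Q7, Map4k2 and Spag4, at distances of 2.87 to 2.93. The search covered only promoters above the filter, which Ctnnb1 is not, so that a close one could not be found.

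The sequences before the unmarked Ctnnb1 5′ end and before the RefSeq start, called the marked start below, differed in CG content. The RefSeq start lies at the upstream edge of the region, and most of the bases before it lie outside the region. Within 1000 bp of this start the signal was 1.92 and 2.14 in wild type and 3.44 and 1.59 in ApcMin/+. In each library it was below that at 120933818. Each is the 250 bases upstream of a start on the plus strand, in GRCm38.p6 (the assembly of mm10), with CG dinucleotides in capitals. The base run before the gene 5′ end of GENCODE is chr9:120928966-120929215 and was read from the genome. The others are RefSeq promoter windows, at chr9:120933150-120933399 for Ctnnb1, chr16:38088751-38089000 for Gsk3b, the member with the strongest mark, and chr10:80295706-80295955 for Apc2, the weakest member with a region at its 5′ end.
Ctnnb1 gene 5′ end: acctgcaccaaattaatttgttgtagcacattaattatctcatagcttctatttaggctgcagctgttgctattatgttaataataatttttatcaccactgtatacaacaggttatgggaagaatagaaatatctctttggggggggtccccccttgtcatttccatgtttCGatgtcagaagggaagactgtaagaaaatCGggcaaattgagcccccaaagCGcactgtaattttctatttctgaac
Ctnnb1 RefSeq start: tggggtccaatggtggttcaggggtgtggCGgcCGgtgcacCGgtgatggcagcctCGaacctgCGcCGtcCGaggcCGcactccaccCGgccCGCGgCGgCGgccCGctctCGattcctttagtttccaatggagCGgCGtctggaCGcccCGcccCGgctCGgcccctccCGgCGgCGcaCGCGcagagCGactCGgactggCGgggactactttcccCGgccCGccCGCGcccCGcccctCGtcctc
Gsk3b: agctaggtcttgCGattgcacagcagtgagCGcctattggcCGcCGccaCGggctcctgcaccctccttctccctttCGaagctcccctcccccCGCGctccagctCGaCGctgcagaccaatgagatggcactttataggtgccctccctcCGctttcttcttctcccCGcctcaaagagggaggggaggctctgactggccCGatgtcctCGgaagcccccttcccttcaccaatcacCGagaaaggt
Apc2: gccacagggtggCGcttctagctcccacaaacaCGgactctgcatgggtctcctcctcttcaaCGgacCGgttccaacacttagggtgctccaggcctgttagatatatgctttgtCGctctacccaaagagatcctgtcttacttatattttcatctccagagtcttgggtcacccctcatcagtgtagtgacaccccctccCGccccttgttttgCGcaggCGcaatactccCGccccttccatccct

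The run before the unmarked Ctnnb1 5′ end held 3 CG dinucleotides at 38.4% G and C, and that before the marked start held 35 at 74.8%. The median over 32851 RefSeq windows of the same length was 6, and 97.0% of them held fewer than the marked Ctnnb1 start. Gsk3b held 15, Apc2 9, Fbxw11 27 and Gsk3a 9. Each of 5 motifs was searched on both strands. The GC box GGGCGG, found in 32.7% of the windows, had 3 matches before the marked Ctnnb1 start, 2 before Apc2 and 1 before Gsk3a. CCAAT, found in 33.8%, had 3 matches before Gsk3b, 2 before the marked Ctnnb1 start and 1 before Gsk3a. TATAAA, found in 12.4%, had 1 match before Gsk3b, and the ETS motif CCGGAAG, found in 6.91%, had 1 before Fbxw11. The TCF/LEF motif CTTTGAT, found in 3.21%, matched in none of these windows nor before the unmarked Ctnnb1 start. In the whole window of 2000 bp around the gene 5′ end, the 7 members above the filter held 73 to 177 CG dinucleotides, with Gsk3b the highest and Btrc the lowest, against a median of 91 over the tested promoters. Apc2 held 46 and Ctnnb1 38. RefSeq windows were found for 5 of the 9 members and not for Apc, Axin1, Csnk1a1 and Btrc.

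**Figure D2:**
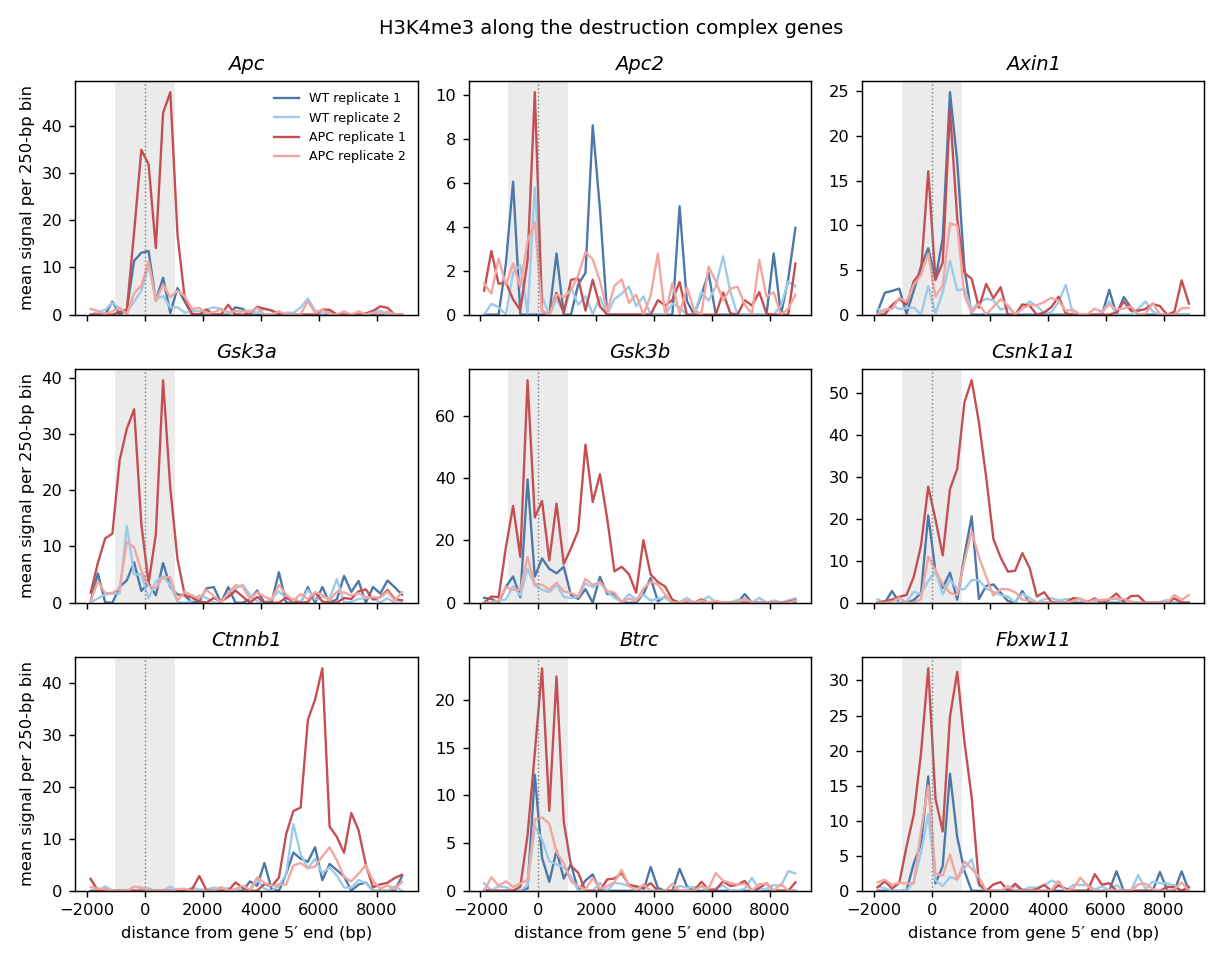
Mean H3K4me3 signal in bins of 250 bp against the distance from the gene 5′ end (bp) for each of the 9 genes and 4 libraries, each panel with its own axis; the grey band is the window of 1000 bp on each side. The signal of Ctnnb1 lies 4085 to 7784 bp downstream of its annotated 5′ end, outside the band, and those of Gsk3b and Csnk1a1 reach 4499 and 3426 bp downstream.

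The genes for the ubiquitin ligase receptors both carried the mark. Btrc, which encodes β-TrCP1 (chromosome 19, position 45363734, plus strand), had a signal of 2.79 and 2.63 in wild type and of 10.3 and 3.93 in ApcMin/+. Its wild-type libraries were the closest of any tested member, at 2.71 ± 0.112 (SD, n = 2), and both ApcMin/+ libraries were above them. The genotype difference was 1.01 with an SE of 0.90 (limma, adjusted p = 0.683), 0.15 after centring and 0.41 without ApcMin/+ replicate 1. The antisense gene 1700016H03Rik begins at -85 bp from the Btrc start on the other strand, and their marks cannot be told apart. Its region was the shortest of the tested members, at 1500 bp.

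Fbxw11, which encodes the paralogue β-TrCP2 (chromosome 11, position 32642724, plus strand), had a signal of 6.97 and 2.92 in wild type and of 18.3 and 4.63 in ApcMin/+. ApcMin/+ replicate 2 lay between the wild-type libraries. The genotype difference was 0.90 with an SE of 1.13 (limma, adjusted p = 0.683), 0.045 after centring and 0.010 without ApcMin/+ replicate 1. The mark was lower just after the start than just before it in each library. It fell from 16.3, 10.9, 31.7 and 15.0 in the bin before the start to 1.05, 1.51, 13.1 and 2.44 in the bin after it, in the order of the libraries above. From 500 to 750 bp downstream it was at 16.7, 1.98, 24.8 and 5.18, so that in wild-type replicate 2 it hardly rose again.

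Over the members, none of the 7 tested promoters passed the threshold between the genotypes, where 0% of the 9931 tested promoters did (limma, adjusted p from 0.683 to 0.697 at the members; 0 members and 131 promoters at an unadjusted p under 0.05). The median difference was 0.90 over the 7 members and 0.85 over all tested promoters. Without the filter it was 0.77 over the 9 members and 0.35 over all 21938 promoters. Both ApcMin/+ libraries exceeded both wild-type ones at 2 of 7, Gsk3a and Btrc, against 38.5% of the tested promoters, and below both at 0 of 7, against 0.161%. With each library centred, 0 of 7 passed the threshold, against 0.121% of all (5 higher, which is 0.0503%, and 7 lower), with differences from -0.34 to 0.37 and a median of 0.045. The central 90% of all tested promoters ran from -0.52 to 0.47. After centring, the groups overlapped at all 7, where both ApcMin/+ libraries exceeded both wild-type ones at 13.1% of the tested promoters and below both at 14.3%. Centring moved the median of all promoters from 0.85 to -0.0077, and turned the direction at Axin1, Gsk3b and Csnk1a1.

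These differences rested on ApcMin/+ replicate 1. With this library and without ApcMin/+ replicate 2, 5 of 7 members passed the threshold, all higher, against 65.2% of the tested promoters. The 5 were Btrc (limma, adjusted p = 0.00539), Gsk3a (0.0106), Apc (0.0190), Csnk1a1 (0.0216) and Fbxw11 (0.0258), with differences of 1.60 to 2.16, while Gsk3b and Axin1 did not pass. In that fit the 1 remaining ApcMin/+ library was assumed to vary like the wild-type libraries. Without ApcMin/+ replicate 1, 0 of 7 members passed, against 0% of the promoters (90 of them at an unadjusted p under 0.05), and the differences ran from -0.35 to 0.41 with 4 above 0 and 3 below. The enrichment of ApcMin/+ replicate 1 and a difference of its source material cannot be told apart.

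**Figure D3:**
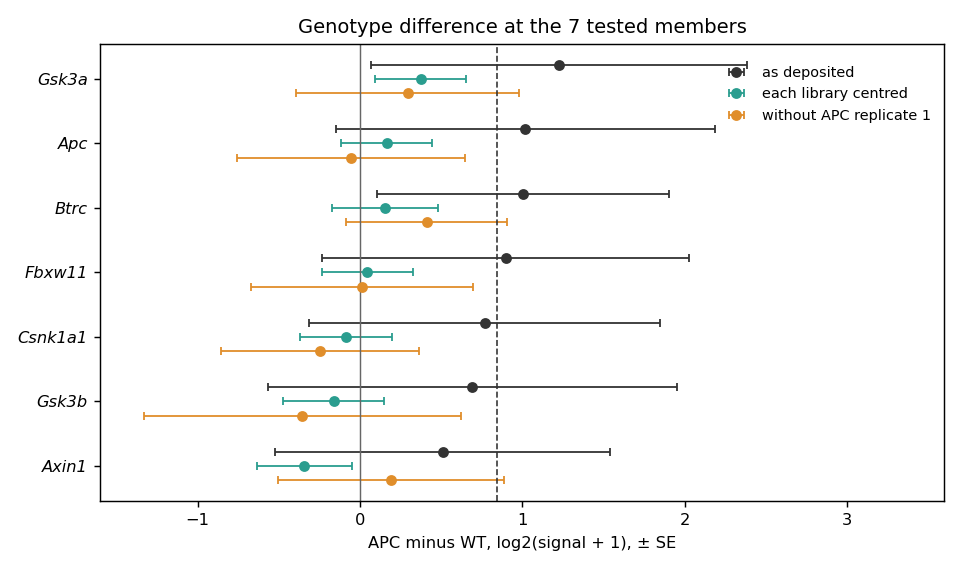
Difference in log2(signal + 1), ApcMin/+ minus wild type, with its SE, at the 7 tested members as deposited, with each library centred on its median tested promoter, and without ApcMin/+ replicate 1; the dashed line is the median of all 9931 tested promoters as deposited. The values as deposited lie from 0.51 to 1.23, and the other 2 sets lie on both sides of 0, from -0.35 to 0.41.

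In the window at the gene 5′ end, the ends of the order of the members held in all 4 libraries, while its middle did not. Relative to the median tested promoter of each library, on the log2(signal + 1) scale, Gsk3b was at 0.86 ± 0.43 (SD, n = 4), Apc at 0.37 ± 0.31, Gsk3a at 0.34 ± 0.39, Fbxw11 at 0.26 ± 0.27, Csnk1a1 at 0.13 ± 0.24, Axin1 at 0.02 ± 0.64 and Btrc at -0.28 ± 0.21. Apc2 was at -1.35 ± 0.70 and Ctnnb1, in the window of its annotated 5′ end, at -2.54 ± 0.90. Gsk3b was above the next gene, Apc, in 4 of 4 libraries, Btrc above Apc2 in 4 of 4 and Apc2 above Ctnnb1 in 4 of 4. The genes from Apc to Btrc were each above the next in only 2 or 3 of 4 libraries, by differences smaller than their SD. Axin1 was placed 2nd of 9 in wild-type replicate 1, 7th in wild-type replicate 2 and ApcMin/+ replicate 1, and 3rd in ApcMin/+ replicate 2.

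Several members have a paralogue with the same role, and their ratio within a library does not depend on a common scaling factor. It can still depend on the enrichment of the library, most where a gene lies near the background. Apc was above Apc2 by 5.67- and 2.47-fold in wild type and 12.8- and 2.80-fold in ApcMin/+. The 12.8-fold value came from the library with 43.3% of its signal in enriched regions, and the 5.67-fold one rested on 3.17 Apc2 fragments. Gsk3a was below Gsk3b in all 4 libraries, with log2 ratios of -1.76 and -0.06 in wild type and -0.38 and -0.17 in ApcMin/+. Btrc was likewise below Fbxw11, with log2 ratios of -1.32 and -0.15 in wild type and -0.83 and -0.24 in ApcMin/+. In both of these pairs wild-type replicate 1, the shallowest library, had the lowest ratio. Axin1 was above Axin2, the axin paralogue that is itself a target of β-catenin and no member here, by 2.64- and 1.91-fold in wild type and 1.25- and 4.33-fold in ApcMin/+. The direction of each ratio was thus the same in 4 of 4 libraries in this window, whereas its size was not steady between replicates. For Axin1 and Axin2 the direction depended on the window. At the start with the highest signal of each gene, Axin1 was at 9.38 and 2.29 in wild type and 9.08 and 5.27 in ApcMin/+, and Axin2 at 5.80 and 3.53 in wild type and 19.9 and 3.98 in ApcMin/+. Axin2 was the higher there in wild-type replicate 2 and ApcMin/+ replicate 1.

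None of the 4 ratios differed between the genotypes beyond the spread of the replicates. The difference in the log2 ratio, ApcMin/+ minus wild type, was 0.68 for Apc to Apc2, with group SDs of 0.85 and 1.56 (two-sided exact permutation test, p = 0.667, n = 2). It was 0.63 for Gsk3a to Gsk3b, 0.20 for Btrc to Fbxw11 and 0.05 for Axin1 to Axin2, each with an exact permutation p of 1 and n = 2. With 2 libraries against 2 the smallest p this test can give is 0.333, and no adjustment over the 4 ratios could bring one under it. At Axin2 the signal was 3.32 and 1.06 in wild type and 6.90 and 1.20 in ApcMin/+, with most of its mark beyond the window, in a region of 6000 bp that reached 5751 bp downstream. Over a window of 2000 bp on each side the Axin1 to Axin2 difference turned to -0.41.

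**Figure D4:**
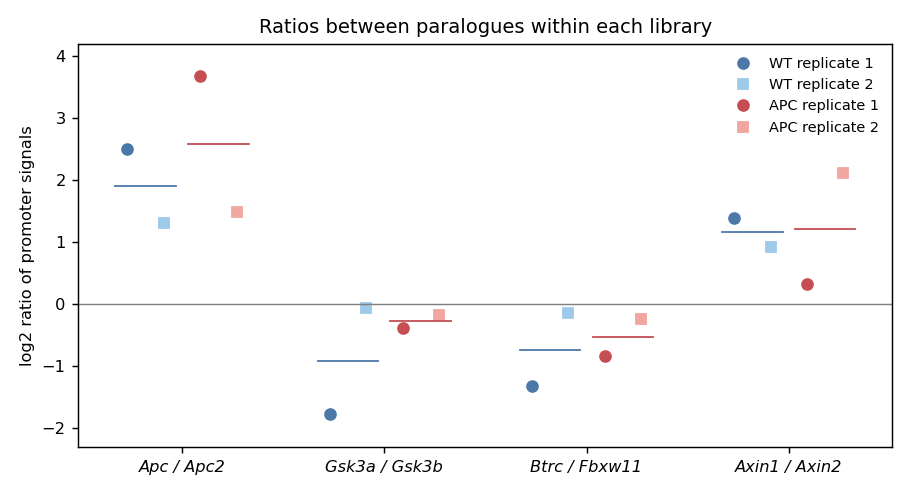
Log2 ratio of the promoter signals of 4 pairs of paralogues in each library, with the mean of each genotype as a line. Apc and Axin1 lie above Apc2 and Axin2 in each library and Gsk3a and Btrc below Gsk3b and Fbxw11, and the genotypes overlap in every pair.

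The rest of the pathway was read from 5 lists of genes, given by how many passed the same test and in which direction. No gene of any list passed the threshold, with or without centring. Among 15 partners of the complex (the adaptors Amer1 to Amer3, other casein kinases and the subunits of protein phosphatase 2A), 10 were tested, with a median difference of 0.66 and of -0.19 after centring, where 3 of 10 were above 0, against 48.8% of all tested promoters. The phosphatase scaffold Ppp2r1a had the highest mean signal, 13.7, with 8.68 and 3.93 in wild type and 31.7 and 10.5 in ApcMin/+. Both ApcMin/+ libraries were above both wild-type libraries there, and its difference was 0.63 after centring (limma, adjusted p = 1.00). Its paralogue Ppp2r1b had the lowest mean of the list, 0.27.

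The 3 core subunits that join β-TrCP in its ubiquitin ligase were all tested. Both ApcMin/+ libraries exceeded both wild-type ones at 0 of 3, against 38.5% of all tested promoters, and fell below both at 0 of 3, against 0.161%. Skp1a, the adaptor, was at 6.63 and 5.33 in wild type and 26.2 and 5.53 in ApcMin/+, and the cullin Cul1 was the lowest, with a mean of 2.92. Of 8 genes that control the turnover of axin, all 8 were tested and at 2 of them both ApcMin/+ libraries exceeded both wild-type ones, against 38.5% of all tested promoters. The deubiquitinase Usp34 had the highest mean, with 5.28 and 2.58 in wild type and 16.2 and 3.89 in ApcMin/+, and the ligase gene Siah1b the lowest, 2.91. On the receptor side 15 of 19 genes were tested and 5 of them had both ApcMin/+ libraries above, against the same 38.5%. Fzd4, a Wnt receptor, was the highest with a mean of 9.98, and Fzd10 the lowest with 0.70. The 4 adherens junction partners, which hold β-catenin or act beside it at the membrane, ranged from 5.86 at Ctnnd1 to 11.6 at Jup, which encodes plakoglobin, the close relative of β-catenin. Their median differences after centring were 0.09 for the ligase core, -0.05 for axin turnover, -0.11 for the receptor side and 0.17 for the junction partners, beside 0.045 for the destruction complex.

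**Figure D5:**
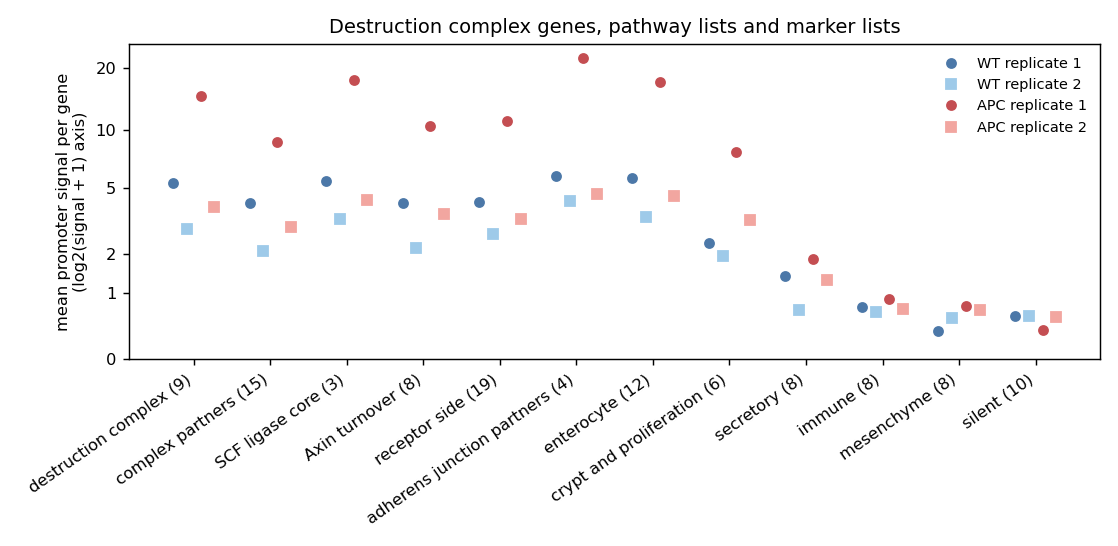
Mean promoter signal per gene (log2(signal + 1) axis) of the destruction complex, the 5 pathway lists and the 6 marker lists in each library, with the number of genes in brackets. The destruction complex lies at 2.89 to 14.7 per gene, near the pathway lists and the enterocyte list (3.44 to 17.2), and the immune, mesenchymal and silent lists lie under 1 in every library.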

How the data were processed

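Libraries were grouped by the genotype in the labels. The authors trimmed read pairs, aligned them to mm10 with Bowtie2, removed duplicates with Picard, kept fragments of 150 to 500 bp and wrote coverage with HOMER. The authors scaled each deposited coverage signal to 10000000 tags, with no control subtracted. These are not counts. The number of fragments was taken as summed signal over signal per tag, and intervals (exact Poisson, 95%) and the floor of 3 tags cover counting error only. Promoters whose mean signal reached 2 were fitted in limma 3.58.1 (R 4.3.3, with a trend) after a log2(signal + 1) step. This filter is weighted towards ApcMin/+ replicate 1. Calls were made at 0.05 after adjustment by Benjamini-Hochberg. A fold on this scale understates the change of low promoters. Regions were called on the mean of the 4 libraries at 5 times the genome mean in bins of 100 bp, joined over 500 bp, and are weighted towards ApcMin/+ replicate 1. Background was the mean outside regions and over 5000 bp from any gene 5′ end. The fit was tested on simulated data. Members and lists were chosen with earlier results of these data known. Genes named were all members, the highest and lowest gene of each pathway list, any list gene past the threshold, Axin2, and the 3 promoters nearest to Apc and to Ctnnb1. The crypt and proliferation genes and the neighbouring genes Rps15, Gm10548 and 1700016H03Rik were named in addition, after their values were seen. Alternatives were scaling, filter, pseudocount (0.1 and 5), window (500 and 2000 bp), replicate block, start and each library left out. Python 3.11.15, numpy 2.4.6, pandas 2.3.3, scipy 1.17.1 and matplotlib were used. H3K9me3, H3, no-antibody, RNA-seq and 12-week libraries were not analysed here.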

Additional observations from a re-analysis of the deposited data

How the results depend on the processing

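With all 4 libraries kept, 126 values held their direction and their side of the threshold, 13 turned in direction and 5 counts moved. Part of the 126 could not turn in direction. The filter and the replicate block leave a log2 difference unchanged (1.02 at Apc under each), and the block also leaves each ratio difference unchanged. No member passed the threshold under any of these alternatives. The number of promoters past the threshold, 0 as deposited, was 12 with centring, 2 with quantile normalization and 13 with centring at the start with the highest signal, a choice made after seeing the data. The log2 difference turned at Axin1 (-0.34), Gsk3b (-0.16) and Csnk1a1 (-0.087) with centring, at the same genes with quantile normalization (-0.14, -0.17 and -0.17), and at Axin1 (-0.44) and Gsk3b (-0.20) with centring at the start with the highest signal. At that start without ApcMin/+ replicate 1 it was -0.35 at Gsk3b and -0.0073 at Fbxw11. Over 2000 bp on each side the ratio differences of Btrc to Fbxw11 and of Axin1 to Axin2 turned to -0.023 and -0.41. The 500 bp window gave no value for Apc to Apc2, since Apc2 was at 0 in wild-type replicate 1.

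With 1 library left out in turn, the promoters past the threshold ranged from 0 to 6477, the members from 0 to 5, and the median over the members from 0.01 to 1.78. The difference ranged from -0.056 to 2.09 at Apc, -0.34 to 1.36 at Axin1, 0.29 to 2.16 at Gsk3a, -0.35 to 1.74 at Gsk3b, -0.25 to 1.78 at Csnk1a1, 0.41 to 1.60 at Btrc and 0.01 to 1.79 at Fbxw11. The ratio differences ranged from -0.42 to 1.78 for Apc to Apc2, -0.22 to 1.49 for Gsk3a to Gsk3b, -0.39 to 0.79 for Btrc to Fbxw11 and -0.84 to 0.95 for Axin1 to Axin2. With centring as well, the promoters past the threshold were 2, 18 and 30 on leaving out wild-type replicate 1, wild-type replicate 2 and ApcMin/+ replicate 2. Differences then turned at Csnk1a1 (-0.072) and Btrc (-0.040) with wild-type replicate 1 left out, where Gsk3a was at 0.028. Without wild-type replicate 2 they turned at Axin1 (-0.97), Gsk3b (-0.56), Csnk1a1 (-0.10) and Fbxw11 (-0.25), with a median of -0.10. Without ApcMin/+ replicate 1 they turned at Apc (-0.18), Gsk3b (-0.48), Csnk1a1 (-0.37) and Fbxw11 (-0.12), with a median of -0.12, and without ApcMin/+ replicate 2 at Axin1 (-0.75). The causes were not tested.

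With the replicate number as a block, 1 promoter passed the threshold, and 15 did with the replicate block and centring, where Axin1, Gsk3b and Csnk1a1 were at -0.34, -0.16 and -0.087. No member passed under the replicate block (limma, adjusted p from 0.533 to 0.591). The correlation of replicate 1 minus 2 between the genotypes was 0.20 over 9931 promoters. With 2 pairs and no shared litter or day in the labels, the libraries share only a number. With 2 libraries for each genotype and ApcMin/+ replicate 1 far above its partner, the SE at the tested members was 0.90 to 1.26 as deposited. Depth limited wild-type replicate 1 most, with 7.98 to 37.2 fragments at the tested members.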
